A study of Mus musculus with 6 samples.

Results

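The genes described here are 6 transcription factor genes of the amacrine and horizontal cell pathway of the retina, Foxn4, Ptf1a, Prdm13, Tfap2a, Tfap2b and Tfap2c. They were chosen by name from the 27998 genes of the count matrix, with earlier results of these data known. The cells came from mouse retina at embryonic day 14 (E14), their polyA RNA was read by the 10x Genomics 3' v2 droplet method, and the design combined mutations of Atoh7 and Bax. Atoh7 is the basic helix-loop-helix factor through which retinal progenitors become ganglion cells, and Bax carries out apoptosis. Each of 3 groups had 2 libraries. The first group was heterozygous for Bax and null for Atoh7 (Bax het Atoh7 null), the second was null for Bax with wild-type Atoh7 (Bax null), and the third was null for both genes (Bax null Atoh7 null). Every group carried at least 1 mutant Bax allele, and no group had both genes intact. The labels gave neither the strain nor the number of embryos pooled, so p-values measure only the spread between these libraries, which may be technical.

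The pathway runs from dividing progenitors to postmitotic neurons. Foxn4, a forkhead factor, gives progenitors the competence to form amacrine and horizontal cells, and Ptf1a, a basic helix-loop-helix factor, commits their daughters to these fates at the expense of ganglion cells. Prdm13, a PR domain zinc finger factor, and the AP-2 family factors Tfap2a and Tfap2b act downstream of Ptf1a. Tfap2c belongs to the AP-2 family too.

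The 67050 cells carried 5 cell type labels deposited by the authors: retinal progenitor cells, neurogenic cells, ganglion cells, cones and horizontal cells. Library totals ranged from 22463515 to 66594431 UMIs (unique molecular identifiers, each standing for 1 captured transcript). Atoh7 had 376 and 458 UMIs in the Bax null libraries and 0 UMIs in each of the other 4. Bax stood at 17.1 and 15.0 CPM (UMIs scaled to a common library total) in Bax null, at 47.7 and 11 in Bax null Atoh7 null and at 144 and 108 in Bax het Atoh7 null. Thus the library that is labelled Bax null Atoh7 null replicate 1 held more Bax than the other 3 libraries labelled Bax null. The Bax null libraries stood apart from the other 4. Mitochondrial genes took 3.80% and 3.90% of their UMIs against 1.06% to 1.15%, and mt-Atp6 reached 8740 and 9020 CPM against 3.74 to 4.55, whereas mt-Nd1 lay between 3381 and 4182 CPM in all 6. Of 62339 distinct cell barcodes, 4534 occurred in more than 1 library. Whether the Bax null libraries differ by Atoh7 genotype or by how they were made cannot be told apart in any comparison with them.

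UMIs were summed per library within each cell type, and the sums were compared with the quasi-likelihood F test of edgeR with trimmed mean (TMM) scaling, all 6 libraries in 1 fit. A gene is described as called when its Benjamini-Hochberg adjusted p was under 0.05, levels are TMM-scaled CPM unless stated, and the log2 fold change of "A over B" is that of A relative to B. Of the 30 pairs of a gene and a cell type, 18 passed the filter on low counts. Where Atoh7 alone differs, in Bax null Atoh7 null over Bax null, 9 of the 18 were called, 7 higher and 2 lower. These were 2 of 2 in ganglion cells, 2 of 4 in neurogenic cells, 2 of 5 in retinal progenitor cells, 1 of 1 in cones and 2 of 6 in cells of the horizontal label. Over all genes tested, 52.7%, 47.3%, 53.9%, 28.1% and 29.2% were called in these cell types, so a call against Bax null was common for any gene. Where both genes differ, in Bax het Atoh7 null over Bax null, 13 of the 18 were called, 9 higher and 4 lower. The background there was 50%, 47.1%, 53.1%, 27.5% and 30.2% in the same order. Where Bax alone differs, in Bax null Atoh7 null over Bax het Atoh7 null, 1 of the 18 was called, Ptf1a under the horizontal label, beside a background of 2.34%, 1.77%, 2.01%, 1.46% and 1.61%.

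The scaling mattered for the comparisons with Bax null. When library totals replaced TMM, an alternative chosen after seeing the data, the median gene moved up by 0.44 to 0.63 on the log2 scale in these comparisons and by 0.08 to 0.12 in the comparison that differs in Bax. The split of the genes' calls moved from 7 higher and 2 lower to 13 higher and 1 lower in Bax null Atoh7 null over Bax null, and from 9 higher and 4 lower to 12 higher and 0 lower in Bax het Atoh7 null over Bax null. Over all genes tested in ganglion cells, the first of these comparisons had 2776 higher and 2804 lower calls with TMM and 6440 and 981 with library totals. Under the horizontal label the same counts were 1214 and 1403 with TMM and 3959 and 529 with library totals. Values with both scalings are given below where a direction or a call differed.

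The 6 genes divided the cell types between them. Foxn4 lay mainly in progenitor and neurogenic cells, with 60.5% to 67.2% of its UMIs per library in retinal progenitor cells and 29.5% to 35.9% in neurogenic cells. Cells of the horizontal label held 79.7% to 87.5% of the Ptf1a UMIs, 85.7% to 93.6% of those of Prdm13 and 71.1% to 90.7% of those of Tfap2a. Tfap2b was shared between the horizontal label, with 63.6% to 78.2% of its UMIs, and ganglion cells, with 13.3% to 27.7%. Tfap2c lay mainly in neurogenic cells of the 4 Atoh7 null libraries, with 57.8% to 68.3% of its UMIs, and had 35.3% and 42.1% there in Bax null.

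**Figure D1:**
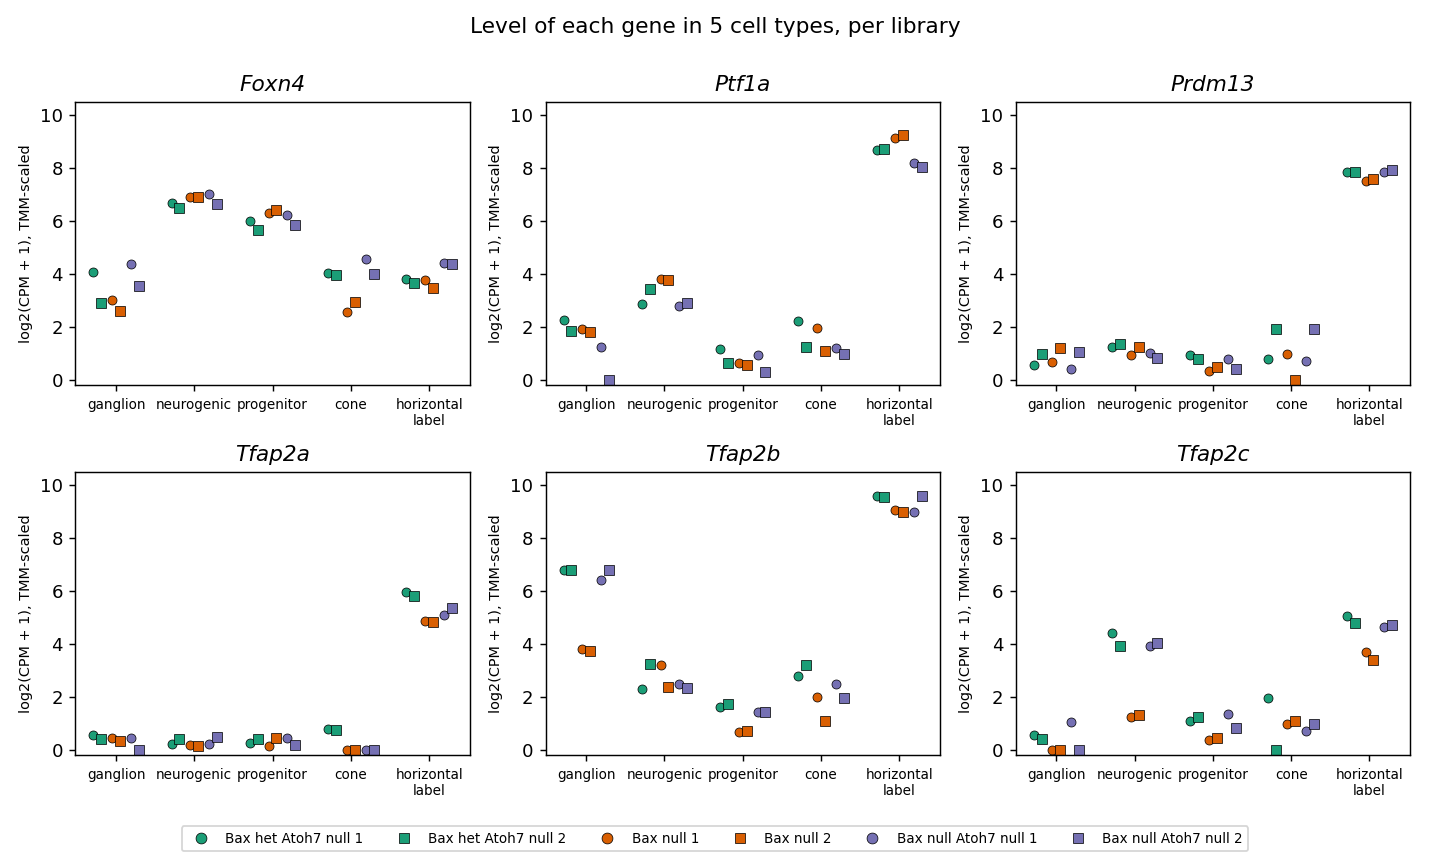
Level of each gene, as log2(CPM + 1) with TMM scaling (y axis), in the 5 cell types (x axis), 1 point per library, coloured by group and shaped by replicate. Foxn4 is highest in neurogenic and retinal progenitor cells and the other 5 genes under the horizontal label, and Tfap2b in ganglion cells and Tfap2c in neurogenic cells are lowest in both Bax null libraries.

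No amacrine label was among the 5, and the label of horizontal cells was checked against its markers. The summed CPM of 7 horizontal cell markers was 1212 to 2130 in its cells per library and 535 to 1455 in ganglion cells. Most of that sum was Onecut2, which had 1490 to 1962 UMIs per library, while Calb1 had 0 to 12 and Sall3 had 1 to 9. A list of 7 amacrine markers apart from the 6 genes summed to 156 to 249 CPM under the horizontal label, 124 to 266 in ganglion cells and 386 to 692 in cones. The summed amacrine list was therefore not highest where Ptf1a and Prdm13 were. This sum is not divided by gene here, and a single gene may set its value in cones. Neurod4, a gene of the pathway, alone had a mean of 355 CPM with TMM in cones of Bax null Atoh7 null. Its mean was 552 CPM in cones of Bax het Atoh7 null. The part of single genes in the cone sum was not tested. The label is used here as deposited, and called the horizontal label.

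Foxn4 (ENSMUSG00000042002, chromosome 5, 114254164 to 114273807, minus strand; positions of all 6 genes are those of the GENCODE mouse release on GRCm38) stood at 78.9 and 84.5 CPM in retinal progenitor cells of Bax null, at 63.8 and 50.1 in those of Bax het Atoh7 null, and at 73.9 and 57 in those of Bax null Atoh7 null. In neurogenic cells the levels were 121 in both Bax null libraries, 102 and 89.2 in Bax het Atoh7 null, and 129.9 and 99.5 for Bax null Atoh7 null. Both Bax null libraries thus lay above both Bax het Atoh7 null libraries in both cell types, and the Bax null Atoh7 null libraries overlapped Bax null in neurogenic cells. In Bax het Atoh7 null over Bax null, Foxn4 was called lower in progenitors, by a log2 fold change of -0.52 (SE 0.14, edgeR adjusted p = 0.0117), and in neurogenic cells, by -0.34 (SE 0.12, edgeR adjusted p = 0.0413). With library totals both directions turned, to 0.02 and 0.18 without a call, so no direction is drawn for Foxn4 in these cells. Leaving out single libraries also ended these calls: without Bax het Atoh7 null replicate 2 or Bax null replicate 2 in progenitors (edgeR adjusted p = 0.103 and 0.0708), and without any of the 4 libraries compared in neurogenic cells (0.0556 to 0.265). In Bax null Atoh7 null over Bax null the log2 fold change was -0.32 in progenitors (SE 0.14, edgeR adjusted p = 0.0818) and -0.07 in neurogenic cells. Without the library that is labelled Bax null Atoh7 null replicate 1 both passed the threshold, at -0.52 (edgeR adjusted p = 0.00850) and -0.30 (0.0388), and with library totals they turned to 0.31 and 0.52.

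In postmitotic cells Foxn4 was low. Ganglion cells of Bax null had 58 and 42 Foxn4 UMIs (7.10 and 5.03 CPM), those of Bax het Atoh7 null 33 and 20 (15.8 and 6.58 CPM) and those of Bax null Atoh7 null 58 and 29 (20.01 and 10.6 CPM). Bax het Atoh7 null over Bax null gave 0.78 in these cells (SE 0.40, edgeR adjusted p = 0.120). With library totals that value was 1.27 and called (edgeR adjusted p = 0.0135). The called rise in Bax null Atoh7 null over Bax null, 1.34 (SE 0.35, edgeR adjusted p = 0.00596), was 0.81 (edgeR adjusted p = 0.118) without the library that is labelled Bax null Atoh7 null replicate 1. In cones, which had 5 to 35 Foxn4 UMIs per library, the value was 1.74 (SE 0.43, edgeR adjusted p = 0.00422), and it was not called without the same library (1.38, edgeR adjusted p = 0.0728) or without Bax null replicate 1 (1.52, edgeR adjusted p = 0.0639). Without the cells of the highest Scrublet doublet scores, Foxn4 in cones was 1.0 (edgeR adjusted p = 0.191) in this comparison and 0.68 (0.406) in Bax het Atoh7 null over Bax null. Neither cone value was called with DESeq2 (adjusted p = 0.0578 and 0.168) or in sums thinned to the smallest total (edgeR adjusted p = 0.0650 and 0.102). The cone value in Bax het Atoh7 null over Bax null, 1.35 (SE 0.45, edgeR adjusted p = 0.0284), was lost without any 1 of the 4 libraries compared (edgeR adjusted p = 0.0722 to 0.191). Progenitor markers moved the same way: their summed level in ganglion cells was 317 to 481 CPM in Bax null and 1043 to 1355 in the other 4 libraries, and in cones it was 533 to 582 against 1062 to 1436. Their part in the Foxn4 values was not tested. Foxn4 was not called under the horizontal label in any comparison with TMM. Its log2 fold change there was 0.81 (SE 0.34, edgeR adjusted p = 0.0827) in Bax null Atoh7 null over Bax null. It was 0.10 (SE 0.37, 0.878) in Bax het Atoh7 null over Bax null. In Bax null Atoh7 null over Bax het Atoh7 null it was 0.71 (SE 0.33, 0.500). With library totals the first was called, at 1.34 (edgeR adjusted p = 0.00313). The genes most like Foxn4 across the 30 sums of 6 libraries and 5 cell types, by Pearson r of log2(CPM + 1) over 7180 genes, were Cdca8 (0.977), Knstrn (0.975), 2810417H13Rik (0.974), Tpx2 (0.974) and Spc24 (0.973). Cdca8, Tpx2, Knstrn and Spc24 encode spindle and kinetochore proteins of dividing cells. The points share libraries and cell types, so r is a description, here and for the other genes.

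Ptf1a (ENSMUSG00000026735, chromosome 2, 19445663 to 19447501, plus strand) was lowest under the horizontal label in the absence of both Atoh7 and Bax. Its UMIs there were 625 and 720 in Bax null, 445 and 590 in Bax het Atoh7 null, and 324 and 257 for Bax null Atoh7 null. The levels were 569 and 614 CPM, 416 and 428 CPM, and 289.6 and 266 CPM in the same order, so the 3 groups did not overlap. The mean was 592 ± 32 (SD, n = 2) in Bax null, 422 ± 9 in Bax het Atoh7 null and 278 ± 17 for Bax null Atoh7 null. The fall from Bax null to Bax null Atoh7 null was -1.09 on the log2 scale (SE 0.13, edgeR adjusted p = 1.99e-06), and it was called in each of the 15 alternative fits, with a smaller size of -0.56 under library totals (edgeR adjusted p = 0.00137). With library totals the fall from Bax het Atoh7 null to Bax null Atoh7 null was -0.51, without a call (edgeR adjusted p = 0.0515). With TMM it was -0.60 and called (SE 0.13, edgeR adjusted p = 0.0162). That call ended in 8 of 15 alternatives, among them DESeq2 (adjusted p = 0.0533), and without Bax het Atoh7 null replicate 1 (-0.62, 0.125), Bax het Atoh7 null replicate 2 (-0.58, 0.261), Bax null replicate 1 or Bax null replicate 2 (-0.60 in both, 0.0584 and 0.0586). From Bax null to Bax het Atoh7 null it was -0.49 (SE 0.13, edgeR adjusted p = 0.00595), which became -0.04 under library totals (0.797), and was not called without Bax het Atoh7 null replicate 1 (-0.47, 0.0557) or Bax null replicate 2 (-0.44, 0.0997).

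The Ptf1a difference was present inside clusters as well as over the whole label. The authors' table divides the horizontal label into 6 clusters, and 4 of them had at least 30 cells in every library. Within cluster 2 the log2 fold change of Ptf1a in Bax null Atoh7 null over Bax null was -1.25 (edgeR adjusted p = 9.33e-06, background 22.2%). Within clusters 45, 57 and 76 it was -0.92, -1.04 and -1.30 (edgeR adjusted p = 0.00225, 0.000207 and 0.000896, backgrounds 23.1%, 20.7% and 15.3%). The comparison that differs in Bax gave -0.65 in clusters 2, 45 and 57 and 0.07 in cluster 76, with backgrounds of 1.03%, 1.47%, 1.75% and 0.787%, and was not called in these clusters (edgeR adjusted p = 0.0832 to 0.974). After each cell was thinned to 1000 UMIs, the share of horizontal-label cells with a Ptf1a UMI was 37.0% and 35.2% in Bax null, 35.4% and 36.0% in Bax het Atoh7 null, and 28.2% and 26.4% for Bax null Atoh7 null. Without thinning the shares were 78.2% and 77.5%, 56.8% and 54.8%, and 40.4% and 37.9%, at median depths of 3668 and 4339, 2104.5 and 1902, and 1641.5 and 1422 UMIs per cell. Blood markers moved with the groups, with a sum of 1033 and 1692 CPM under the label in Bax null and 3.6 to 199 elsewhere, and their part in the Ptf1a values was not tested.

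Neurogenic cells held the next largest part of the Ptf1a UMIs. The counts were 116 and 136 in Bax null (13.2 and 12.5 CPM), 37 and 63 in Bax het Atoh7 null (6.23 and 9.76 CPM), and 40 and 34 in Bax null Atoh7 null (5.85 and 6.41 CPM). Both Bax null libraries lay above the other 4. The log2 fold change was -1.07 in Bax null Atoh7 null over Bax null (SE 0.22, edgeR adjusted p = 0.00186) and -0.67 in Bax het Atoh7 null over Bax null (SE 0.21, edgeR adjusted p = 0.0188). Under library totals the values were -0.48 (edgeR adjusted p = 0.0701) and -0.16 (0.527), and neither was called. Without Bax het Atoh7 null replicate 1 the second was -0.39 (0.172), and without Bax null replicate 1 or 2 it was -0.64 (0.0817) or -0.71 (0.0667). The 4 neurogenic clusters with the most Ptf1a UMIs, 85, 79, 52 and 73, held 75.8% of the 426 UMIs in 15.6% of the neurogenic cells. Of the neurogenic cells with a Ptf1a UMI, 0% to 23.8% per library also had a Foxn4 UMI, against 16.8% to 42.7% of all neurogenic cells, at median depths of 1429.5 to 7882 and 1532 to 7142 UMIs. In each of the 6 libraries the share was lower among Ptf1a cells. Retinal progenitor cells had 4 to 27 Ptf1a UMIs per library, without a call with TMM. The log2 fold change there was 0.24 (SE 0.57, edgeR adjusted p = 0.749) in Bax null Atoh7 null over Bax null. It was 0.81 (SE 0.53, 0.226) in Bax het Atoh7 null over Bax null, and called with library totals, at 1.34 (0.0389). In Bax null Atoh7 null over Bax het Atoh7 null it was -0.57 (SE 0.55, 0.705). The genes most like Ptf1a were P2rx1 (r = 0.963), Gm13344 (0.960), Chodl (0.952), Tnfaip2 (0.949) and Eomes (0.949).

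Prdm13 (ENSMUSG00000040478, chromosome 4, 21677480 to 21685963, minus strand) was not called under the horizontal label in any of the 3 comparisons with TMM, and was called in some alternatives. Its level was 181 and 194 CPM in Bax null, 232 and 233 in Bax het Atoh7 null, and 232 and 243 for Bax null Atoh7 null, from 199 to 321 UMIs per library. Both Bax null libraries were the lowest, by less than the fit calls. The log2 fold change was 0.34 in Bax null Atoh7 null over Bax null (SE 0.13, edgeR adjusted p = 0.0525), 0.31 in Bax het Atoh7 null over Bax null (SE 0.13, edgeR adjusted p = 0.0720) and 0.03 in Bax null Atoh7 null over Bax het Atoh7 null (SE 0.12, edgeR adjusted p = 0.973). With library totals the first and second were called, at 0.87 and 0.75 (edgeR adjusted p = 1.62e-05 and 9.63e-05). With that scaling Prdm13 rose and Ptf1a fell in the same cells in Bax null Atoh7 null over Bax null, both past the threshold. Without the library that is labelled Bax null Atoh7 null replicate 1, or without replicate 2 of that group, the second was 0.30 in both and called (0.0432 and 0.0443), and on the 4 libraries compared it was 0.30 (0.0441). Without the cells of the highest Scrublet scores, Prdm13 was called in both comparisons with Bax null, at 0.49 (edgeR adjusted p = 0.00969) and 0.38 (0.0345). Within cluster 2 it was called in Bax het Atoh7 null over Bax null, at 0.55 (edgeR adjusted p = 0.0203, background 21.1%), and within cluster 76 the same comparison gave -0.64 (0.180, background 12.6%). In retinal progenitor cells Prdm13 had 6 to 20 UMIs per library. Its value there in Bax null Atoh7 null over Bax null was 0.70 (SE 0.45, edgeR adjusted p = 0.218). Library totals gave 1.32 with a call (edgeR adjusted p = 0.0217). In Bax null Atoh7 null over Bax het Atoh7 null the value was -0.57 (SE 0.41, edgeR adjusted p = 0.587). Its call there in Bax het Atoh7 null over Bax null, 1.28 (SE 0.42, edgeR adjusted p = 0.0291), was lost without any 1 of the 4 libraries compared (1.01 to 1.59, edgeR adjusted p = 0.0651 to 0.184). Vtn (r = 0.982), Gm13344 (0.982), Tfap2a (0.981), Kirrel2 (0.979) and Pmfbp1 (0.978) were the genes most like Prdm13.

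Tfap2a (ENSMUSG00000021359, chromosome 13, 40715302 to 40738376, minus strand) had 38 to 86 UMIs per library in all cells. Under the horizontal label it had 31 and 32 UMIs in Bax null (28.2 and 27.3 CPM), 66 and 76 in Bax het Atoh7 null (61.6 and 55.2 CPM), and 37 and 39 in Bax null Atoh7 null (33.1 and 40.4 CPM). The 3 groups did not overlap, with Bax het Atoh7 null highest. Tfap2a rose in Bax het Atoh7 null over Bax null by 1.06 (SE 0.21, edgeR adjusted p = 0.000844), a call kept in all 15 alternatives over the whole label. Within clusters 57 and 76, which hold most of its UMIs, the values were 0.04 (edgeR adjusted p = 0.958) and 0.75 (0.0920). The values were 0.39 (edgeR adjusted p = 0.231) in Bax null Atoh7 null over Bax null and -0.67 (SE 0.21, edgeR adjusted p = 0.152) in Bax null Atoh7 null over Bax het Atoh7 null. Library totals gave 0.93 for the former, with a call (edgeR adjusted p = 0.00395). The antisense gene Gm26688 overlaps Tfap2a, and whether the counting used strand was not given in the sources used here. Pmfbp1 (r = 0.989), Kirrel2 (0.988), Gm13344 (0.986), Slc1a6 (0.984) and Vtn (0.982) were most like Tfap2a, and 4 of these 5 also stood in the list for Prdm13.

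Tfap2b (ENSMUSG00000025927, chromosome 1, 19208914 to 19238576, plus strand) was present in cells of the horizontal label in every library, with 565 to 1032 UMIs. Its level there was 528 and 506 CPM in Bax null, 764 and 749 in Bax het Atoh7 null, and 505 and 759 for Bax null Atoh7 null. In Bax null Atoh7 null over Bax het Atoh7 null the log2 fold change was -0.26 (SE 0.16, edgeR adjusted p = 0.639). In Bax null Atoh7 null over Bax null, library totals gave a call that TMM did not, at 0.83 (edgeR adjusted p = 0.000291). The library that is labelled Bax null Atoh7 null replicate 1 lay with Bax null and replicate 2 with Bax het Atoh7 null. The log2 fold change in Bax null Atoh7 null over Bax null was 0.29 (SE 0.16, edgeR adjusted p = 0.186), and without the former library it was 0.55 (6.02e-05). Without the latter library, the comparison that differs in Bax gave a called fall of Tfap2b, -0.59 (0.000631). In Bax het Atoh7 null over Bax null it rose by 0.55 (SE 0.16, edgeR adjusted p = 0.0123), which was lost with DESeq2 (adjusted p = 0.0717) and without any 1 of the 4 libraries compared (0.51 to 0.58, edgeR adjusted p = 0.0816 to 0.133), and its values within clusters 2, 45, 57 and 76 were -0.26, -0.40, 0.24 and 0.34, without a call (edgeR adjusted p = 0.273 to 0.458, backgrounds 21.1%, 19.9%, 17.5% and 12.6%).

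Outside the horizontal label Tfap2b was mainly a gene of ganglion cells, and there it differed most between groups. It had 105 and 101 UMIs in Bax null, among 10475320 and 10906998 UMIs of that type. In Bax het Atoh7 null it had 227 and 331, and in Bax null Atoh7 null 244 and 301, among 1913889 to 2817213 UMIs. The levels were 12.9 and 12.1 CPM in Bax null, 109 in both Bax het Atoh7 null libraries, and 84.2 and 110.1 in Bax null Atoh7 null. All 4 Atoh7 null libraries lay above both Bax null libraries, and the library that is labelled Bax null Atoh7 null replicate 1 was the lowest of the 4. The mean was 12.5 ± 0.5 (SD, n = 2) in Bax null, 108.8 ± 0.02 in Bax het Atoh7 null and 97.1 ± 18.3 for Bax null Atoh7 null. Tfap2b rose by 2.96 on the log2 scale in Bax null Atoh7 null over Bax null (SE 0.14, edgeR adjusted p = 6.82e-09) and by 3.12 in Bax het Atoh7 null over Bax null (SE 0.14, edgeR adjusted p = 5.04e-09). Between the 2 Atoh7 null groups the difference was -0.17 (SE 0.13, edgeR adjusted p = 0.640). Both rises were called in all 15 alternatives, and library totals gave 3.57 and 3.61. This pair of gene and cell type was proposed with an earlier result of these data known, so the test is not independent evidence.

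**Figure D2:**
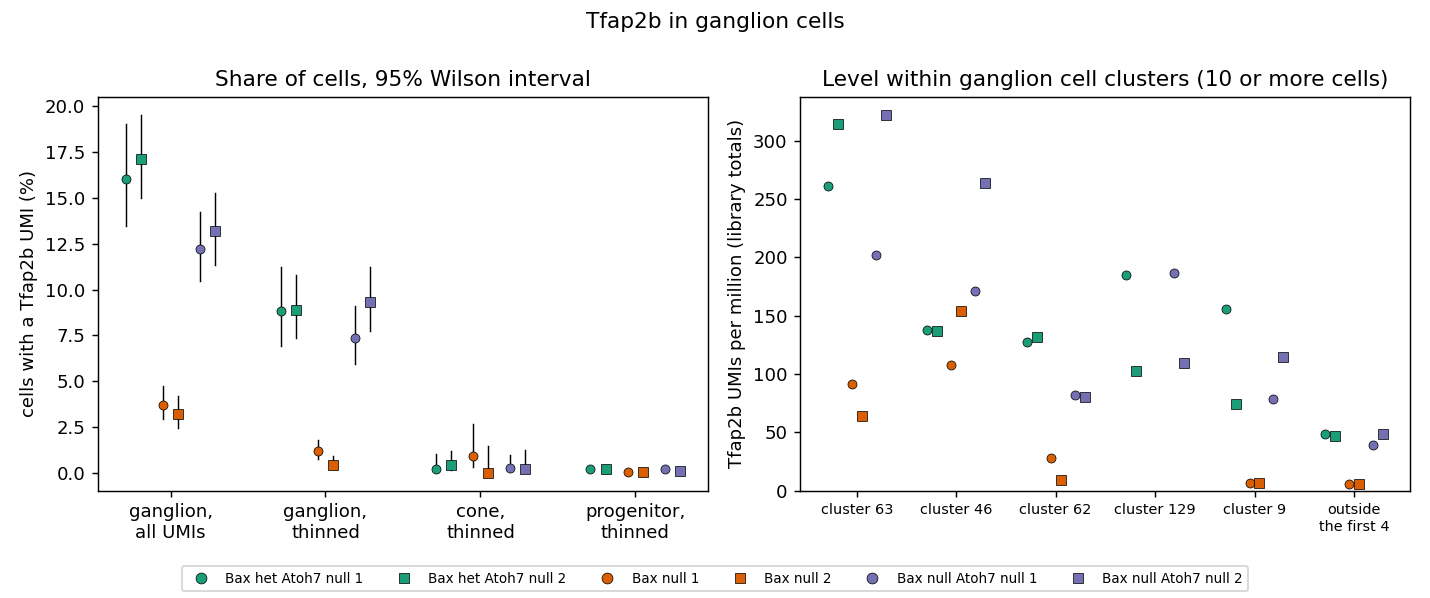
Left, percent of cells with a Tfap2b UMI per library, in ganglion cells before and after thinning to 1000 UMIs per cell and in thinned cones and retinal progenitor cells (bars, Wilson 95% intervals, counting error only). Right, Tfap2b UMIs in CPM of library totals within the 4 ganglion cell clusters richest in Tfap2b, cluster 9 and the ganglion cells outside those 4; libraries with fewer than 10 cells in a cluster are not drawn. The 4 Atoh7 null libraries lie above both Bax null libraries in each place except cluster 46, where they overlap, and cluster 129, where no Bax null library is drawn.

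The change in ganglion cells was larger than in the cells where Tfap2b is highest. A fit of cell type by group with the library as a block gave a difference between the effect in ganglion cells and the effect under the horizontal label of 2.66 on the log2 scale in Bax null Atoh7 null over Bax null (SE 0.13, edgeR adjusted p = 9.90e-16), where 6.78% of all genes were called. In Bax het Atoh7 null over Bax null it was 2.56 (SE 0.13, edgeR adjusted p = 8.71e-16, background 7.03%), and in Bax null Atoh7 null over Bax het Atoh7 null 0.10 (SE 0.11, edgeR adjusted p = 0.941). A shift of a gene that is common to all cells of a library drops out of this fit. The same differences for Foxn4 were 0.54, 0.69 and -0.15, with adjusted p of 0.596, 0.489 and 0.994.

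Cells counted singly gave the same order. The share of ganglion cells with a Tfap2b UMI was 3.72% and 3.18% in Bax null (66 of 1772 and 50 of 1571 cells), 16.0% and 17.1% in Bax het Atoh7 null (107 of 667 and 181 of 1056), and 12.2% and 13.2% in Bax null Atoh7 null (141 of 1153 and 150 of 1138). The Bax null shares were the lowest although these cells were the deepest, with medians of 5578 and 6683 UMIs against 1834 to 2624. Thinned to 1000 UMIs per cell, the shares were 1.19% and 0.45%, 8.85% and 8.90%, and 7.36% and 9.33%. Cones, as a type in which Tfap2b was nearly absent, gave 0.31% to 1.10% before thinning (medians of 1165 to 3854 UMIs) and 0% to 0.92% after it, and of the thinned Bax null shares in ganglion cells 1 lay above and 1 within that range. In each Atoh7 null library the share in ganglion cells lay above the Wilson 95% interval of the share in cones.

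Ganglion cells with a Tfap2b UMI were set beside all ganglion cells and beside cells of the horizontal label for other transcripts. Of the ganglion cell genes counted this way, only Stmn2 and Isl1 are given, and they do not settle the type of these cells. Of the ganglion cells with a Tfap2b UMI, 97.0% to 100% per library had a UMI of Stmn2, a neuronal microtubule regulator, close to the 95.4% to 98.6% of all ganglion cells and to the 91.0% to 97.2% of all cells of the horizontal label. Isl1, a ganglion cell factor, was found in 66.4% and 64.6% of these cells of Bax het Atoh7 null and 56.7% and 65.3% of those of Bax null Atoh7 null, against 42.0% to 47.4% of all ganglion cells of these libraries. In Bax null the shares were 78.8% and 90.0% against 88.4% and 89.8%. Under the horizontal label Isl1 was found in 1.5% to 4.31% of cells, and in 1.67% to 6.08% of those with a Tfap2b UMI. The median depth of the Tfap2b ganglion cells of the 4 Atoh7 null libraries was 2153 to 3016 UMIs, above the 1834 to 2624 of all their ganglion cells, and the part of depth in the Isl1 shares was not tested. A Ptf1a UMI was found in 0% to 4.0% of the Tfap2b cells, and Ptf1a itself had 0 to 23 UMIs in all ganglion cells of a library. The ratio of Tfap2b to Ptf1a UMIs was 28.4 and 41.4 in ganglion cells of Bax het Atoh7 null and 61.0 in the library that is labelled Bax null Atoh7 null replicate 1, and replicate 2 had no Ptf1a UMI beside 301 of Tfap2b. Under the horizontal label of the same 4 libraries the ratio was 1.74 to 2.85 over all cells, and 5.0 to 12.6 within cluster 76, where Tfap2b is highest. In Bax null the ratio was 4.57 and 4.81 in ganglion cells. Over all cells of the horizontal label it was 0.93 and 0.82 in Bax null, and within cluster 76 2.14 and 3.40. The share of Tfap2b ganglion cells among the cells with the highest Scrublet doublet scores was 0% to 9.22%, against 3.88% to 8.76% of all ganglion cells.

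The Tfap2b UMIs of ganglion cells were unevenly spread over the authors' 20 ganglion cell clusters. The 4 clusters with the most Tfap2b UMIs pooled over all libraries, 63, 46, 62 and 129, held 75.8% of the 1309 UMIs in 32.5% of the cells. Because Tfap2b itself picked them, that share and their sizes by group are a description and no independent result. These clusters made up 6.43% and 7.32% of the ganglion cells in Bax null and 51.1% to 56.6% in the other 4 libraries. Within them the level was 73.1 and 58.0 CPM of the library total in Bax null, 180.4 and 178 in Bax het Atoh7 null and 151 and 196 for Bax null Atoh7 null, and in all other ganglion cells 5.99 and 5.62, 48.9 and 46.9, and 39.5 and 48.6. The Atoh7 null libraries were thus higher over these 4 clusters together and outside them. In cluster 46 alone the groups overlapped, at 108 and 154 CPM in Bax null (15 and 19 cells) and 137 to 264 in the other 4. Within cluster 9 the log2 fold change was 3.27 in Bax null Atoh7 null over Bax null (edgeR adjusted p = 0.000103, background 30.6%), within cluster 62 it was 1.55 (0.00871, 31.5%) and within cluster 63 1.28 (0.00112, 25.1%). In Bax het Atoh7 null over Bax null the same clusters gave 3.48, 2.32 and 1.53 (edgeR adjusted p = 1.41e-05, 0.000173 and 0.000211, backgrounds 32.9%, 23.6% and 22.7%). The values in clusters 62 and 63 were smaller than over all ganglion cells. Clusters were made from these counts, and a test of their sizes was not made.

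Markers of other cell types moved with Tfap2b in ganglion cells, in sums scaled by library totals. With that scaling the median gene of ganglion cells rose too. The rise was 0.63 on the log2 scale for Bax null Atoh7 null over Bax null. For Bax het Atoh7 null over Bax null it was 0.50. Part of each rise below may thus be the scaling. The 7 horizontal cell markers summed to 535 and 540 CPM in Bax null ganglion cells and 1187 to 1455 in the other 4 libraries, the 7 amacrine markers to 124 and 128 against 206 to 266, and the 7 neurogenic markers to 607 and 618 against 1237 to 1612. The 10 ganglion cell markers summed to 12369 and 12875 against 8510 to 11179, and the 4 blood markers to 840 and 988 against 4.4 to 219. Lists further from the pathway rose as well. The 7 progenitor markers summed to 317 and 481 CPM in Bax null against 1043 to 1355. The 4 vessel markers summed to 11.8 and 13.3 against 29.8 to 51.7, and the 6 cone markers to 43.6 and 45.3 against 73.1 to 96.7. Markers of lens, microglia and pigment epithelium were at 5.6 CPM or less in every library. The part of these lists in the Tfap2b result was not tested. Across the 30 sums the genes most like Tfap2b were St18 (r = 0.953), Mpped2 (0.947), Plekho1 (0.943), Tstd3 (0.940) and Mir124-2hg (0.938).

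In retinal progenitor cells Tfap2b was rare, with 17 and 18 UMIs in Bax null, 45 in both Bax het Atoh7 null libraries, and 42 and 29 in Bax null Atoh7 null. It rose over Bax null by 1.48 in Bax null Atoh7 null (SE 0.26, edgeR adjusted p = 0.00126) and by 1.88 in Bax het Atoh7 null (SE 0.25, edgeR adjusted p = 0.000266). The share of progenitors with a Tfap2b UMI after thinning was 0.04% to 0.23%, a level near that of 1 UMI. Horizontal cell markers summed to 18 and 21 CPM in Bax null progenitors and 47 to 59 in the others, and their part was not tested. In neurogenic cells, with 21 to 73 UMIs, Tfap2b was not called in any comparison (log2 fold changes of -0.50, -0.55 and 0.05, edgeR adjusted p = 0.324, 0.684 and 0.931).

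Tfap2c (ENSMUSG00000028640, chromosome 2, 172549593 to 172558622, plus strand) rose in neurogenic cells of both Atoh7 null groups, by the largest log2 fold changes of the 18 pairs tested. Bax null had 12 and 16 UMIs there, Bax het Atoh7 null 120 and 91, and Bax null Atoh7 null 96 and 82. The levels were 1.36 and 1.47 CPM, 20.2 and 14.1 CPM, and 14 and 15.5 CPM. Each of the 4 Atoh7 null libraries held more Tfap2c than both Bax null libraries, although the Bax null neurogenic sums were deeper. The log2 fold change was 3.35 in Bax null Atoh7 null over Bax null (SE 0.27, edgeR adjusted p = 2.13e-06) and 3.57 in Bax het Atoh7 null over Bax null (SE 0.26, edgeR adjusted p = 1.21e-06). Both were called in all 15 alternatives, with values of 3.94 and 4.08 under library totals. The groups null for Atoh7 differed by -0.22 (SE 0.19, edgeR adjusted p = 0.721). Within neurogenic cluster 3 the rises were 2.37 (edgeR adjusted p = 0.00241, background 26.1%) and 2.67 (0.000429, 25.4%).

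Tfap2c and Foxn4 shared neurogenic clusters. The 4 clusters with the most Tfap2c, 87, 3, 16 and 13, held 51.3% of its 417 neurogenic UMIs in 22.7% of the cells. Of them, clusters 3, 16 and 87 were also among the 4 that held the most Foxn4. Of the neurogenic cells with a Tfap2c UMI, 41.1% and 32.1% had a Foxn4 UMI in Bax het Atoh7 null, 42 of 84 cells and 28.8% in Bax null Atoh7 null, and 66.7% and 81.2% in Bax null, where the cells numbered 12 and 16. Among all neurogenic cells the shares were 23.9% and 19.0%, 23.6% and 16.8%, and 38.7% and 42.7%. The Tfap2c cells were also deeper, with medians of 2181 to 7727 UMIs against 1532 to 7142, and the part of depth in this difference was not tested. In retinal progenitor cells, Tfap2c had 8 and 10 UMIs in Bax null, 24 and 26 in Bax het Atoh7 null and 39 and 13 for Bax null Atoh7 null. It rose over Bax null by 1.95 in Bax null Atoh7 null (SE 0.42, edgeR adjusted p = 0.00394) and by 1.98 in Bax het Atoh7 null (SE 0.43, edgeR adjusted p = 0.00381), and the former was 1.28 (0.0642) without the library that is labelled Bax null Atoh7 null replicate 1.

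Under the horizontal label the 13 and 11 Tfap2c UMIs of Bax null compared with 34 and 37 in Bax het Atoh7 null and 27 and 24 for Bax null Atoh7 null. The rises over Bax null were 1.45 (SE 0.31, edgeR adjusted p = 0.00151) in Bax het Atoh7 null and 1.2 (SE 0.33, edgeR adjusted p = 0.00917) for Bax null Atoh7 null. The latter was not called with DESeq2 (1.18, 0.108) or without Bax null replicate 2 (1.03, 0.0847). Within cluster 2, where Tfap2c could be tested, neither was called, at 0.54 in Bax het Atoh7 null (edgeR adjusted p = 0.409, background 21.1%) and 0.85 for Bax null Atoh7 null (edgeR adjusted p = 0.183, background 22.2%). Ganglion cells had 0 to 3 Tfap2c UMIs per library. In neurogenic cells the 7 neurogenic markers summed to 2188 and 2462 CPM in Bax null and 4645 to 5438 in the other 4 libraries, and their part in the Tfap2c rise was not tested. Piwil4 (r = 0.891), Rhbdl3 (0.851), Abat (0.843), Sorcs2 (0.843) and Psmc3 (0.835) were most like Tfap2c, at lower values of r than the other 5 genes had.

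**Figure D3:**
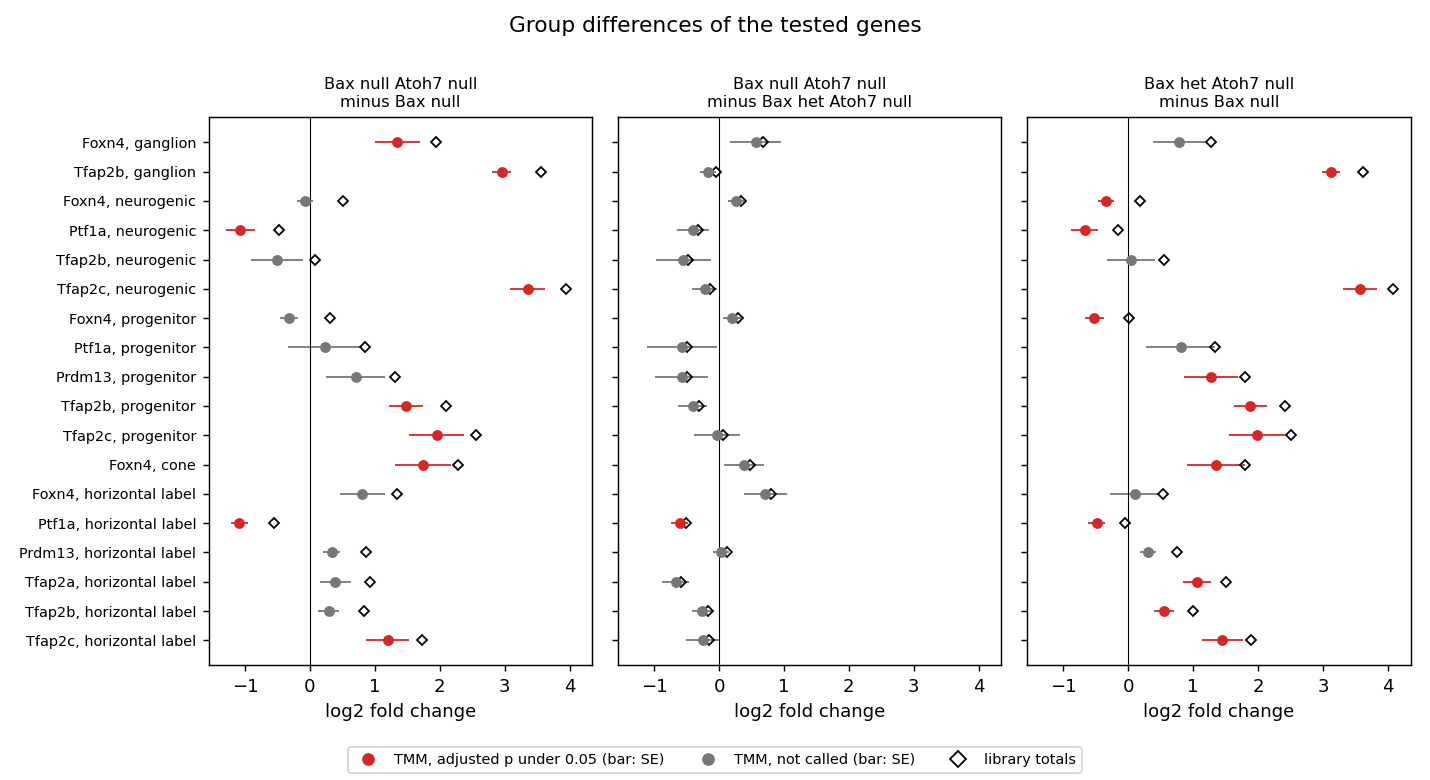
Log2 fold changes (x axis) of the 18 tested pairs of gene and cell type (y axis) in the 3 comparisons, with TMM scaling (circles, red where called, bars 1 SE) and with library totals (open diamonds). Tfap2b in ganglion cells and Tfap2c in neurogenic cells stand at 2.96 and 3.35 in Bax null Atoh7 null over Bax null, and diamonds lie to the right of the circles in both comparisons with Bax null.

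Inside the horizontal label the genes followed an order across the authors' 6 clusters. Clusters were ordered by their Tfap2b level, so that the order of Tfap2b itself is no result, and the levels, pooled over the 6 libraries as CPM of library totals, are a description. Along this order Tfap2b went from 39.3 in cluster 139 and 90.3 in cluster 45 through 429 in cluster 2 and 948 in cluster 141 to 1207 and 1708 in clusters 57 and 76. Ptf1a was 280.2 and 328 in clusters 139 and 45, highest at 699 in cluster 141, and back at 309 in cluster 76. Prdm13 had its highest level in the same cluster 141, at 511, with 51.3 in cluster 139 and 147 in cluster 76. Tfap2c reached 49.2 in cluster 141 and 40.3 in cluster 57, and was 6.4 or less in clusters 76, 45 and 139. The horizontal cell factor Onecut2 was 325 and 613 in clusters 139 and 45, 1438 in cluster 2, and 2309 to 2490 in the other 3. Tfap2a was found mainly at the end of the order, at 84.4 and 198 in clusters 57 and 76, 18.5 in cluster 141 and 0.9 or less in clusters 2, 45 and 139. Lhx1, a horizontal cell factor, was likewise 149 in cluster 76 and 32.6 in cluster 57, and between 3.2 and 12.3 in the other 4. Foxn4 was between 3.2 and 27.9 throughout, highest in cluster 45.

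**Figure D4:**
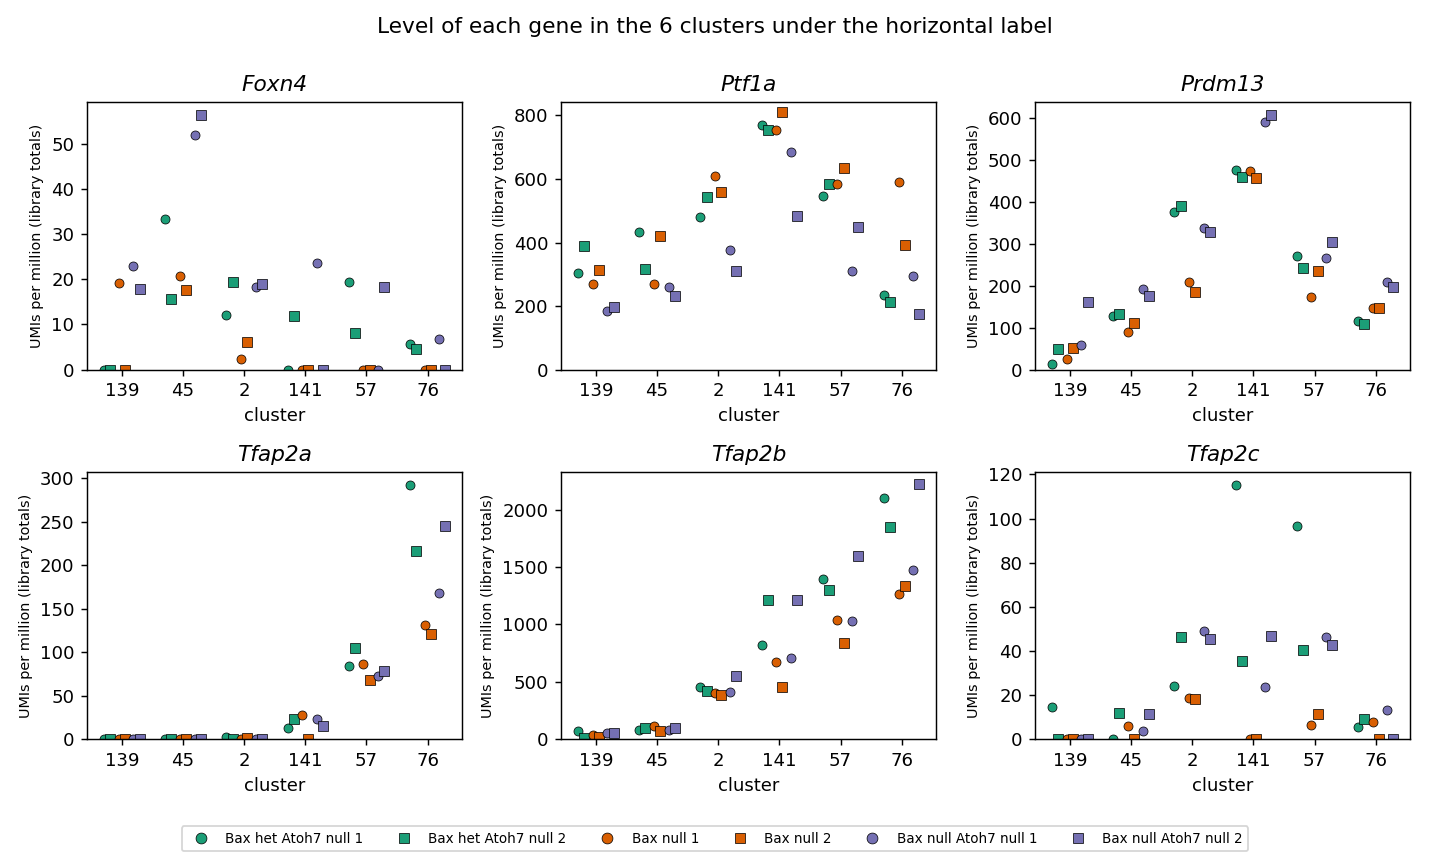
Level of each gene in CPM of library totals (y axis, 1 scale per gene) in the 6 clusters of the horizontal label (x axis, in the order of pooled Tfap2b), 1 point per library. Ptf1a and Prdm13 are highest in cluster 141 in all 6 libraries and Tfap2a and Tfap2b in cluster 76, and for Ptf1a both Bax null Atoh7 null libraries lie below the other 4 in each cluster but 76.

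The cluster make-up of the horizontal label differed between libraries. Cluster 141 held 3.08% and 1.40% of the label's cells in Bax null and 5.26% to 9.38% elsewhere, and cluster 76 held 12% and 13.7% in Bax null, 18.6% and 18.7% in Bax het Atoh7 null, and 15.6% and 13.6% for Bax null Atoh7 null. Co-detection followed the cluster order in every library. Of the cells with a Tfap2a UMI, 91.2% to 100% also had a Tfap2b UMI, against 46.6% to 58.9% of all cells of the label. Lhx1 was found in 8.82% to 34.8% of the Tfap2a cells and in 3.59% to 7.31% of all. Tfap2a cells had Ptf1a in 25.0% to 69.6%, below the share in all cells (37.9% to 78.2%) in each library. Their median depths were 1484 to 4112 UMIs, and those of all cells 1422 to 4339. Ptf1a cells, in contrast, had Tfap2b in 46.5% to 61.5% and Prdm13 in 34.0% to 51.1%, and all cells had them in 46.6% to 58.9% and 34.8% to 49.8%.

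The sequences upstream of 4 of the genes are shown because Ptf1a, Prdm13, Tfap2a and Tfap2b shared the horizontal label. With TMM, Ptf1a was called lower and Tfap2a higher there in Bax het Atoh7 null over Bax null. The Ptf1a value was -0.04 with library totals, and the Tfap2a values within clusters 57 and 76 were 0.04 and 0.75, without a call. Shown are the 250 bases before the RefSeq start site (GRCm38.p6), written 5' to 3' on the gene's strand, with motif matches in capitals. Tfap2a has 2 RefSeq windows, of which the one with matches is shown. The motifs searched on both strands were the E-box CANNTG bound by basic helix-loop-helix factors, the TC-box TGGGAA of the Ptf1a complex, the AP-2 motif GCCNNNGGC and the Foxn4 core GACGC.
Ptf1a, chr2:19445413-19445662, plus strand: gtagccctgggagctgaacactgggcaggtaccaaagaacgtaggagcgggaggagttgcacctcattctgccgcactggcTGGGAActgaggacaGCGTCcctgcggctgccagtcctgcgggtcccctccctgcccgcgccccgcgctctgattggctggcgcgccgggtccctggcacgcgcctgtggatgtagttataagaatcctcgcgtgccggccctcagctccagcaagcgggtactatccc
Prdm13, chr4:21685964-21686213, minus strand: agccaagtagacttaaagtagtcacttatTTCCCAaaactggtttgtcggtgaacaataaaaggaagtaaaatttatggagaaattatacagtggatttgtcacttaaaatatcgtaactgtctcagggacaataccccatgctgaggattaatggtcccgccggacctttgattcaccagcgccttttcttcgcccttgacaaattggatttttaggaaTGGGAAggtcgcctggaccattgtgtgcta
Tfap2a, chr13:40734921-40735170, minus strand: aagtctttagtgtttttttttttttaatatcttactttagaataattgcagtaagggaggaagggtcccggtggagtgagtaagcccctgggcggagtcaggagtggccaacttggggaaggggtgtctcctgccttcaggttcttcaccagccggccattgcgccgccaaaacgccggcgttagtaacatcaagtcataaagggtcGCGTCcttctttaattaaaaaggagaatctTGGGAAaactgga
Tfap2b, chr1:19211804-19212053, plus strand: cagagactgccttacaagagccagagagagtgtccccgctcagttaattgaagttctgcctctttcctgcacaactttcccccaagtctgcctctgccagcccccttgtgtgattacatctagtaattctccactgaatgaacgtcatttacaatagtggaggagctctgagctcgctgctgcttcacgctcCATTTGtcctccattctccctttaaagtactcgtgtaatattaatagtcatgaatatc

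A TC-box began 169 bases before the start of Ptf1a, 221 and 30 bases before that of Prdm13 and 13 bases before that of Tfap2a. A Foxn4 core began 154 bases before the start of Ptf1a and 43 bases before that of Tfap2a. Tfap2b had neither, and its window held 1 E-box, 58 bases before the start. The TC-box was present in 21.6% of all 32851 RefSeq windows of this length, the Foxn4 core in 22.6%, the E-box in 66.2% and the AP-2 motif, which none of the 4 windows held, in 13.7%. No matches overlapped one another. The Foxn4 window (chr5:114273762-114274011, minus strand) held no match to the 4 motifs. A RefSeq window was at hand for 5 of the 6 genes. The Tfap2a window overlaps an exon of the antisense gene Gm26688 in GENCODE, and the other 3 windows shown overlap no annotated exon. A match is a description of these letters and not evidence of binding.

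A list of 34 other genes of the pathway (partners and upstream factors, other amacrine factors, transmitter genes and horizontal cell factors) was examined in the same fits. In ganglion cells, 25 of the 34 were tested. In Bax null Atoh7 null over Bax null, 15 rose and 5 fell (80.0% called, against 52.7% of all genes), with a median log2 fold change of 0.65 against 0.02 over all genes. With library totals, 20 of the 25 rose and 2 fell, where all genes gave 6440 higher and 981 lower calls. Neurod1, a bHLH factor of amacrine and photoreceptor cells, rose from 82.8 ± 19.1 to 368 ± 26 CPM (2.15, edgeR adjusted p = 1.61e-07). The amacrine factor Bhlhe22 rose by 1.59 and the Notch ligand Dll4 by 1.40. In Bax het Atoh7 null over Bax null, 14 rose and 4 fell (72.0% called, against 50% of all genes, and 19 and 1 with library totals, where all genes gave 5584 higher and 998 lower calls), and Neurod1 (2.70), Bhlhe22 (2.11) and Dll4 (1.67) were among those that rose. Between the Atoh7 null groups, 5 of the 25 fell (20% called, against 2.34% of all genes, and 3 with library totals), and among them Rorb (-0.97), Neurod4 (-0.75), Pax6 (-0.74) and Rbpj (-0.66) led. Rbpj is the partner of Ptf1a in its transcription complex, Rorb acts upstream of Ptf1a, and Pax6 is a factor of progenitors, amacrine and ganglion cells.

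In neurogenic cells 28 genes of the list were tested, and 14 rose and 2 fell in Bax null Atoh7 null over Bax null (57.1% called, against 47.3%). With library totals 24 rose and 2 fell, where all genes gave 7056 higher and 824 lower calls (67.5% called). Lhx9 rose by 1.96 (edgeR adjusted p = 2.81e-05) and Bhlhe22 by 1.19, while Pax6 fell by 1.33 and Rorb by 1.01. In Bax null Atoh7 null over Bax het Atoh7 null, Rorb (-0.93), Neurod4 (-0.76) and Pax6 (-0.60) were the 3 genes called, all lower (10.7% of the 28, against 1.77%, and 2 with library totals). Under the horizontal label 21 were tested, and 4 rose and 6 fell in Bax null Atoh7 null over Bax null (47.6% called, against 29.2%), with a median of 0.02 against 0.04 over all genes. With library totals 10 rose and 4 fell, where all genes gave 3959 higher and 529 lower calls. Bhlhe22 rose by 1.69 there, and Pax6 fell by 1.53, Meis2 by 1.41 and Rorb by 1.19. Pax6 and Rorb were also the 2 called genes of the comparison that differs in Bax, at -0.85 and -0.86, beside the -0.60 of Ptf1a (9.52% of the 21, against 1.61%). In progenitors and cones Rorb and Pax6 were lower in the same comparison too (-0.96 and -0.54 in progenitors, -0.88 and -0.61 in cones). In Bax null Atoh7 null over Bax null, 60.7% of 28 listed genes were called in progenitors, against 53.9% of all genes. In cones 31.8% of 22 were called, against 28.1%, with a median of -0.22. In Bax het Atoh7 null over Bax null the shares were 60.7% in neurogenic cells, 53.6% in progenitors, 13.6% in cones and 33.3% under the horizontal label. All genes gave 47.1%, 53.1%, 27.5% and 30.2% in that order.

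Of 6 genes of horizontal and inhibitory cells followed under the horizontal label, called or not, Gad2, which makes the transmitter GABA, rose over Bax null by 0.75 in Bax null Atoh7 null (SE 0.19, edgeR adjusted p = 0.00504) and by 0.63 in Bax het Atoh7 null (SE 0.19, edgeR adjusted p = 0.0151). Lhx1 rose over Bax null in Bax het Atoh7 null by 0.80 (SE 0.24, edgeR adjusted p = 0.0172), with a value of 0.31 (edgeR adjusted p = 0.416) in Bax null Atoh7 null. Onecut1, Onecut2, Prox1 and the vesicular GABA transporter Slc32a1 were not called in any of the 3 comparisons, with log2 fold changes between -0.56 and 0.50. The Slc32a1 counts were 12 to 33 UMIs per library, and changes of that gene may not be detectable at this depth.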

How the data were processed

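The deposited matrix holds raw UMI counts per gene and cell, which the authors made with Cell Ranger 1.2.1 on mm10, per the submitters' processing notes; their filters on cells are not given in the sources used here. Library, cell type and cluster of each cell were taken from the authors' cell table, and the matrix sums equalled its totals in all 67050 cells. The other 26078 cells of that table, from 2 libraries, were not used here. Counts were summed per library and cell type and tested with edgeR 4.0.16 (R 4.3.3: filterByExpr, TMM, quasi-likelihood F test, Benjamini-Hochberg over all genes tested, threshold 0.05), all 6 libraries in 1 fit; the SE is the log2 fold change divided by the square root of F. The smallest exact permutation p for 2 libraries against 2 is 0.33, so single values have no such test.

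Effects in ganglion cells and under the horizontal label were compared in 1 edgeR fit over both, with the library as a block. Thinning drew 1000 UMIs per cell with a fixed seed and left out 2410 shallower cells. Doublets were kept; an alternative fit drops from each library the 8% of its cells that Scrublet (in scanpy 1.11.5) scored highest. Summed CPM of markers and values by cluster use library totals. Library totals in place of TMM, and fits within clusters of at least 30 cells in every library, were added after seeing the data. On simulated counts for Bax null Atoh7 null over Bax null, 2-fold changes were recovered in 74%, 69% and 58% of genes. The order is ganglion cells, neurogenic cells and the horizontal label. Changes of 4-fold were recovered in 99%, 100% and 97%, and of the calls made, 7.49%, 5.06% and 3.73% were of unchanged genes. The simulation changed 100 well-counted genes per fold, with the same fixed spread for every gene and all other genes equal between groups. In the data 52.7%, 47.3% and 29.2% of genes were called, so these rates may not hold there.

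The 6 genes, the lists of markers and pathway genes and the tests were chosen with earlier results of these data known. All 6 genes were reported in each tested cell type, though not in every comparison. From the pathway list, up to 4 called genes with the largest change per cell type and comparison were named, with at least 10 CPM in the higher group and groups that did not overlap, together with 6 horizontal and inhibitory cell genes under the horizontal label. One gene that this rule named is not reported here. The genes most like each gene were the 5 with the highest r among genes with at least 20 CPM in a cell type. Intervals and shares cover counting error only.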

Additional observations from a re-analysis of the deposited data

Results flagged for a closer look

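The effect of the groups on Tfap2b differed between ganglion cells and cells of the horizontal label. The difference of the log2 fold changes was 2.66 (SE 0.13, edgeR adjusted p = 9.90e-16) in Bax null Atoh7 null over Bax null and 2.56 (SE 0.13, edgeR adjusted p = 8.71e-16) in Bax het Atoh7 null over Bax null, by a term for cell type and group in 1 fit. Both comparisons use the same Bax null libraries, and Tfap2b was higher in ganglion cells of 4 of 4 Atoh7 null libraries than in those of both Bax null libraries.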

How the results depend on the processing

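Over 63 results, 955 alternative values were computed; 810 kept their direction and side of the threshold, 78 lost a call, 25 gained one and 42 turned in direction, and 12 of the 25 calls held in every setting tried other than the fits within clusters. Of these 12, the calls in Bax het Atoh7 null over Bax null under the horizontal label were lost within clusters 57 and 76 for Tfap2a (0.04 and 0.75) and within cluster 2 for Tfap2c (0.54). With library totals in place of TMM, the Foxn4 values turned to 0.52 and 0.18 in neurogenic cells and to 0.31 and 0.02 in retinal progenitor cells against Bax null, Tfap2b in neurogenic cells to 0.08, and Tfap2c in progenitors to 0.05 where Bax alone differs; 14 pairs were called in Bax null Atoh7 null over Bax null and 0 where Bax alone differs. DESeq2 called 8 pairs in Bax het Atoh7 null over Bax null. It called 0 where Bax alone differs, as did edgeR on the 4 libraries compared and edgeR without the highest Scrublet scores. Without those cells, values turned to -0.11 (Foxn4) and 0.00 (Tfap2b) for ganglion cells against the horizontal label, -0.57 for Tfap2b in neurogenic cells and 0.04 for Tfap2c in progenitors. Sums thinned to the smallest total gave -0.01 for Ptf1a in progenitors, 0.00 for Prdm13 under the horizontal label and -0.34 for Tfap2b in neurogenic cells. Within cluster 2 values turned to -0.21, 0.04 and -0.26 for Tfap2b, -0.29 for Prdm13 and 0.31 for Tfap2c; within cluster 45 to -0.48 and -0.40 for Tfap2b and -0.09 for Foxn4; within cluster 57 to -0.38 for Tfap2a; and within cluster 76 to 0.07 for Ptf1a and -0.64 for Prdm13. The causes were not tested.

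Leaving out 1 library at a time gave 8 to 10 called pairs in Bax null Atoh7 null over Bax null, 6 to 15 in Bax het Atoh7 null over Bax null and 0 to 3 where Bax alone differs. Tfap2b in ganglion cells ranged from 2.75 to 3.14, from 3.08 to 3.16 and from -0.37 to 0.02 in the same order, and its difference from the horizontal label from 2.57 to 2.78, 2.53 to 2.57 and 0.01 to 0.23. Values without a call crossed 0 for Foxn4 under the horizontal label (-0.06 to 0.25), in ganglion cells (-0.03 to 1.23), in neurogenic cells (-0.30 to 0.10) and between these types (-0.67 to 0.44); for Prdm13 under the label (-0.01 to 0.07); for Ptf1a in progenitors (-1.97 to 0.12 and -1.17 to 0.78); for Tfap2b under the label (-0.59 to 0.01 and -0.04 to 0.55) and in neurogenic cells (-0.65 to 0.59, -0.99 to 0.14 and -0.95 to 0.04); and for Tfap2c in neurogenic cells (-0.46 to 0.06) and progenitors (-0.70 to 0.33). The differences of replicate 1 minus replicate 2 correlated at 0.409 between the groups null for Atoh7, over 5852 genes. With Bax null they correlated at 0.017 for Bax het Atoh7 null and at -0.156 for Bax null Atoh7 null. Whether the replicate numbers mark a shared step in the groups null for Atoh7 was not tested. The replicate block brought a call for Foxn4 in progenitors (-0.33) and in ganglion cells (0.83) and changed no other. Genes with few UMIs, such as Tfap2c outside neurogenic cells and Prdm13 in progenitors, are limited by depth.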
